A study of Mus musculus with 8 samples.

Results

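The 10 genes described here encode mouse receptors for prostaglandins, leukotrienes and related lipid mediators. They were taken by gene symbol from a table of 28239 symbols, and all 10 were found in it. Ptger1, Ptger2, Ptger3 and Ptger4 encode the EP1 to EP4 receptors for prostaglandin E2, and Ptgir encodes the receptor for prostacyclin. Ltb4r1 and Ltb4r2 encode the high- and low-affinity receptors for leukotriene B4, whereas Cysltr1 and Cysltr2 encode receptors for the cysteinyl leukotrienes. Fpr2 encodes a formyl peptide receptor that also binds lipoxin A4, a product of lipoxygenases.

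The reads came from regulatory T cells (Tregs) made in culture from spleen CD4+ T lymphocytes of mice on the C57BL/6 background, either wild type (WT) or labelled Alox15-/-. Alox15 encodes a lipoxygenase, and the study asked how gene expression in Tregs differs without it. Naive CD4+ cells were purified by magnetic negative selection and held for 2 days with IL-2, TGF-β and beads carrying antibodies to CD3 and CD28, so that both groups shared the strain background, the cytokines and the beads and differed in the genotype on the label. There were 4 libraries in each group. The deletion is carried in every cell of the animal, not in T cells alone, and the adult Alox15-/- and WT mice came from different suppliers according to the methods, so that genotype and source cannot be told apart. Neither the age nor the sex of the mouse behind each library was given in the labels, and Xist, which is transcribed from an inactive X chromosome, and the Y-linked Ddx3y were both read in every library (172 to 554 and 170 to 406 reads). The design text counts 4 mice in each group and does not say how mice were assigned to libraries.

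The libraries held 3723151 to 6952596 counts in the group labelled Alox15-/- and 4810125 to 9538962 in the WT group. Alox15 itself was higher in the libraries labelled Alox15-/-, at 63.4 to 70.2 CPM (counts scaled to the total of the library) against 1.87 to 8.98 CPM in WT, so that direction goes against the label. The deleted part of the gene is not given in the sources used here, and reads near the 3′ end may lie outside it. An exchange of the group labels was not tested, and it would turn every direction given here. Foxp3, the defining transcription factor of Tregs, was read at 71.4 to 113 CPM in the libraries labelled Alox15-/- and 92.9 to 194 CPM in WT (log2 fold change -0.42, edgeR adjusted p = 0.655), so that the groups overlapped. The summed markers of T cells (7 genes, 2000 to 2289 against 2126 to 2230 CPM) and of Tregs (4 genes including Foxp3, 1353 to 1510 against 1363 to 1612 CPM) overlapped between the groups. Single T cell genes went opposite ways without overlap, as did 5.25% of tested genes in either direction. Cd4 was lower (209 to 296 against 326 to 350 CPM, edgeR adjusted p = 0.358). Cd3g was higher (151 to 169 against 110 to 139 CPM, edgeR adjusted p = 0.294). The sums of the lists for other cells did not overlap. The summed CPM of myeloid markers was 83.4 to 385.2 in the libraries labelled Alox15-/- and 34.0 to 49.4 in WT, that of eosinophil markers 19.5 to 68.8 against 1.25 to 10.2, of mast cell and basophil markers 136.7 to 339.1 against 58.6 to 82.9, of natural killer and γδ T cell markers 78.9 to 140.9 against 25.3 to 41.5, of megakaryocyte markers 3.12 to 13.8 against 0.637 to 1.51, and of erythroid markers 902 to 3467 against 32.8 to 121.7. The sum of B cell markers went the other way, at 5.53 to 7.53 against 8.27 to 19.2 CPM. Some genes did not follow the sum of their list. By mean CPM, Cd79b (B cells) was at 4.05 against 3.60, Kit (mast cells) at 30.7 against 31.5 and Ncr1 (natural killer cells) at 0.342 against 0.413. The γδ T cell gene Trdc was the largest of its list, at 65.3 against 18.3 CPM. Alox15-/- replicate 2 had the highest sum for myeloid, eosinophil, mast cell, natural killer and megakaryocyte markers, and replicate 3 for erythroid markers.

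Prostaglandins are made from arachidonic acid by cyclooxygenases and leukotrienes by 5-lipoxygenase, and both act on neighboring cells through receptors of the G protein-coupled family. EP2, EP4 and the prostacyclin receptor couple mainly to the stimulatory G protein and raise cyclic AMP, EP3 mainly lowers it, and EP1 and the leukotriene receptors act largely through calcium or inhibitory G proteins. In T cells, prostaglandin E2 is best known for acting through EP2 and EP4. The leukotriene receptors and Fpr2 are best known from granulocytes, monocytes and macrophages.

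One receptor accounted for most reads. Of 8310 reads over the 10 genes in all 8 libraries, 7495 (90.2%) came from Ptger4. Averaged over the 8 libraries, Ptger4 stood at 160.8 CPM and above 90.3% of the genes tested, Ptger2 at 8.07 CPM, and Ptgir at 4.96 CPM. Ptger4 was 19.9-fold above Ptger2 and 32.4-fold above Ptgir. Counts come from tags near the 3′ end of transcripts and were not divided by gene length, so these orders hold on the tag scale. Ptger3 followed at 1.84 CPM, Fpr2 at 0.959, Cysltr1 at 0.808, Ltb4r1 at 0.803, Cysltr2 at 0.271, Ptger1 at 0.130 and Ltb4r2 at 0.0925 CPM.

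The order was firm at the top and loose at the bottom. Ptger4 was above Ptger2 in 8 of 8 libraries, Ptger2 above Ptgir in 6, Ptgir above Ptger3 in 7 and Ptger3 above Fpr2 in 6. Fpr2 exceeded Cysltr1 in 2 libraries and Cysltr1 exceeded Ltb4r1 in 4, so that these 3 genes do not differ in order beyond their spread over all libraries. Their order by mean differed between the groups: Fpr2 (1.67 CPM), Ltb4r1 (1.35) and Cysltr1 (0.861) in the libraries labelled Alox15-/-, and Cysltr1 (0.756), Ltb4r1 (0.258) and Fpr2 (0.246) in WT. Ltb4r1 was above Cysltr2 in 6 libraries, Cysltr2 above Ptger1 in 5, and Ptger1 above Ltb4r2 in 2.

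**Figure D1:**
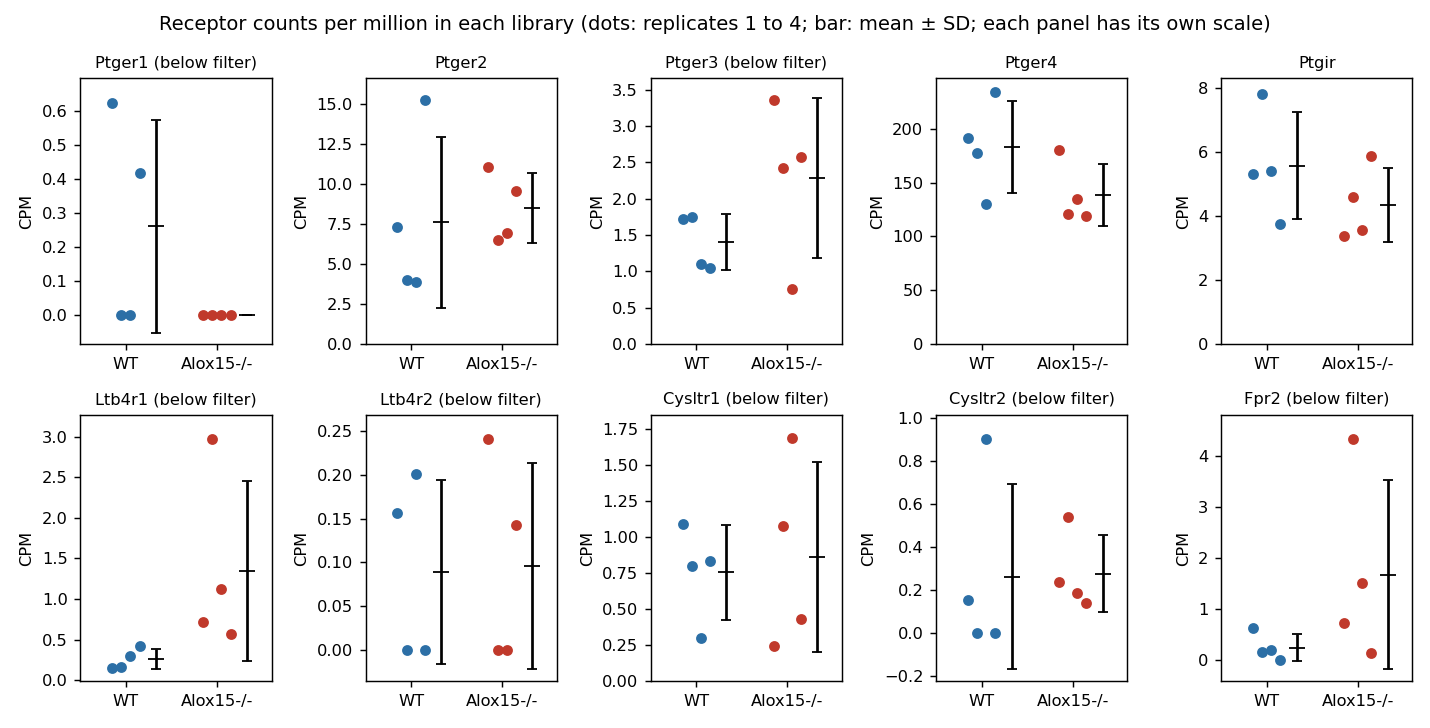
CPM (counts scaled to the total of the library, linear axes with their own scale in each panel) of the 10 receptor genes in 4 WT and 4 libraries labelled Alox15-/-. Dots are libraries and black bars the mean ± SD of 4. Ltb4r1 is the member whose dots do not overlap between the groups, at 0.572 to 2.97 against 0.156 to 0.418 CPM, and Ptger4 ranges from 119 to 233.6 CPM.

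Only 3 members reached at least 2 CPM in at least 4 libraries, the filter for the fit across all genes: Ptger4, Ptger2 and Ptgir. Of 12700 genes tested with edgeR's quasi-likelihood test at a Benjamini–Hochberg adjusted p of 0.05, 1.24% were called (1.05% with a higher level under the Alox15-/- label and 0.197% with a lower one). None of the 3 members was called by edgeR, DESeq2 or limma-voom, and 1 of them, Ptger4, had an unadjusted p under 0.05, as did 7.84% of all genes tested. The other 7 members were below the filter, each with fewer than 20 reads in its highest library.

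The sequences before the start sites of the 3 receptors in the fit are shown because these genes share cyclic AMP coupling while their levels lie far apart. They are RefSeq windows in GRCm38.p6 from 250 bases before to 50 bases after the annotated start, given in the direction of transcription. Capitals mark matches on either strand to the letters of the GC box (GGGCGG, which reads CCGCCC on the other strand), the CCAAT box (CCAAT) or the NFAT core (TGGAAA, which reads TTTCCA on the other strand). The windows lie at chr15:5244138-5244437 on the minus strand for Ptger4, chr14:44987861-44988160 on the plus strand for Ptger2 and chr7:16906240-16906539 on the plus strand for Ptgir. The Ptger2 window ends before the gene's first base in the GENCODE annotation.
Ptger4: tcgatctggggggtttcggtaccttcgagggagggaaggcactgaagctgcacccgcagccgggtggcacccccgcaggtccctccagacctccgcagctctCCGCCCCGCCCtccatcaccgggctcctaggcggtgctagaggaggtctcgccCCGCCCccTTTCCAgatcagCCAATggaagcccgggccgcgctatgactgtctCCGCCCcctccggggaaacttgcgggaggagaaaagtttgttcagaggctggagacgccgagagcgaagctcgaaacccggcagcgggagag
Ptger2: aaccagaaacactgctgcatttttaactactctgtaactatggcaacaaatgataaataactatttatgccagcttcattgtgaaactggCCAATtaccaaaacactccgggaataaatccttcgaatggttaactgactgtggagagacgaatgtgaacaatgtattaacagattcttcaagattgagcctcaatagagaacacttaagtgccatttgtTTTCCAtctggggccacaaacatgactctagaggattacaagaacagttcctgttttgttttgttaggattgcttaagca
Ptgir: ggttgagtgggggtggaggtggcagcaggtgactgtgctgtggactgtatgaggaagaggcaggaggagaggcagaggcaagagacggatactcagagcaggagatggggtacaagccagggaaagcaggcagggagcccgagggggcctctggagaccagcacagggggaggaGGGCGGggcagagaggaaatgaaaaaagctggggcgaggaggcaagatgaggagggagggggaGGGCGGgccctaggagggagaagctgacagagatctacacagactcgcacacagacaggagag

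GC content was 67.0% in the Ptger4 window, 37.7% for Ptger2 and 62.0% for Ptgir, against a median of 52.7% over 32851 such windows. The Ptger4 window held 4 GC boxes, first bases at -148, -143, -95 and -42 from the start site, and the first pair share a base. The Ptgir window held 2, at -76 and -13, and the Ptger2 window 0, while 35.7% of all windows hold at least 1. A CCAAT box lay at -75 in Ptger4 and -160 in Ptger2 (37.4% of windows), and the NFAT core at -87 and -30 (21.4% of windows). The cyclic AMP response element TGACGTCA (1.79% of windows), its half-site TGACG (20.8%), the AP-1 letters TGACTCA (5.2%), the E-box CACGTG (7.15%) and TATAAA (13.6%) were searched on both strands, the half-site lying inside the full element, and none was found in the 3 windows. Of the 10 members, 7 had a window in the RefSeq table, and Ptger1, Ltb4r2 and Cysltr1 had none.

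Ptger4, whose product EP4 raises cyclic AMP, lies at chr15:5206661-5244187 on the minus strand in the GENCODE annotation of GRCm38. In replicates 1 to 4 it was read at 180.4, 121, 134 and 119 CPM in the libraries labelled Alox15-/- and at 191, 177, 129.8 and 234 CPM in WT. A pair of libraries labelled Alox15-/- fell below every WT library and a pair of WT libraries rose above every one of them, but WT replicate 3 was lower than 2 of the 4, so the groups overlapped. The means were 139 ± 28.6 and 183 ± 42.7 CPM (SD, n = 4 each). In the edgeR quasi-likelihood fit the log2 fold change, Alox15-/- over WT, was -0.40 ± 0.17 (SE), a fold of 0.759 with a 95% interval of 0.594 to 0.971 (unadjusted p = 0.0304, Benjamini–Hochberg adjusted p = 0.561). Between replicates Ptger4 varied by 17.0% beyond counting in the fit, against 3.27% from counting alone, so counting was a small part of its error.

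The share of the receptor reads that came from Ptger4 is given as a description, without a p-value. It was 90.05, 84.4, 89.5 and 86.0% in replicates 1 to 4 labelled Alox15-/-, and 91.8, 92.4, 91.3 and 91.5% in WT. Every library labelled Alox15-/- was below every WT library on this share of all 10 receptors. Such a share falls when reads of the sparse members rise, and Alox15-/- replicate 2 held 16 Fpr2 and 11 Ltb4r1 reads. How often shares of this kind separate for other genes was not measured. Of the reads of the EP receptors alone, Ptger4 made up 90.7 to 94.6% in the libraries labelled Alox15-/- and 93.3 to 96.9% in WT, and these ranges overlapped. Exact binomial 95% intervals, which cover counting error only, overlapped for some libraries of the groups, such as Alox15-/- replicate 1 (87.8 to 92.0%) and WT replicate 3 (89.7 to 92.7%), and did not for others, such as Alox15-/- replicate 2 (81.0 to 87.4%). Ptger2 reads per 100 Ptger4 reads were 5.18 to 8.05 in the libraries labelled Alox15-/- and 2.25 to 6.52 in WT.

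The Ptger4 difference was negative in each of 19 other fits, at log2 fold changes between -0.55 and -0.26, and it was called in 1 of them. Without the filter on low values, where 1.37% of 28239 genes were called, it was -0.42 with an adjusted p of 0.0265 in edgeR. Over all 19 fits the adjusted p ranged from 0.0265 to 0.912. Leaving out WT replicate 4, the library with the highest Ptger4, gave -0.26 (adjusted p = 0.723 in edgeR), and leaving out Alox15-/- replicates 2 and 3, which held most marker reads of other cells, gave -0.28 (adjusted p = 0.912).

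**Figure D2:**
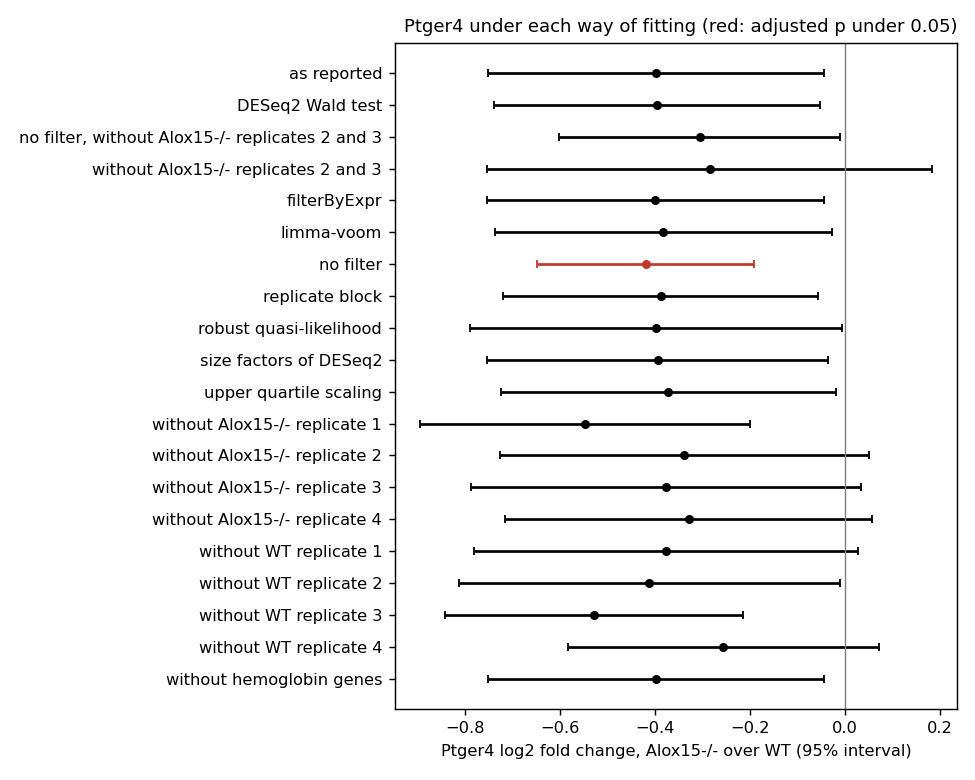
Log2 fold change of Ptger4, Alox15-/- over WT (dot), with its 95% interval (bar), in the reported fit and 19 others, 1 row each. All estimates lie below 0, between -0.55 and -0.26, and the fit without a filter, in red, has an adjusted p under 0.05.

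The last exon of Ptger4, where the tags are expected, holds 3124 bases and lies inside the span of Ttc33 on the opposite strand. Exons of Ttc33 cover 82 of these bases and 0 of the last 500. Ttc33 was read at 25.2 ± 2.73 CPM in the libraries labelled Alox15-/- and 22.8 ± 3.02 in WT (SD, n = 4). Exons of the pseudogene Gm15937, also on the opposite strand, cover 872 bases of the exon. Whether the counting used strand is not given in the sources used here, and the 500 bases at the transcript's end had no match in another gene at 90% identity over at least 100 bases.

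Ptger2, encoding EP2, the other receptor through which prostaglandin E2 raises cyclic AMP, lies at chr14:44988195-45003820 on the plus strand. It was read at 11.1, 6.48, 6.96 and 9.59 CPM in replicates 1 to 4 labelled Alox15-/- and at 7.33, 3.98, 3.91 and 15.2 CPM in WT. The WT libraries spread wider than the others, with WT replicate 4 the highest of all 8 and WT replicates 2 and 3 the lowest, so that one group lies within the range of the other. The log2 fold change was 0.23 ± 0.37 (SE), a fold of 1.17 with a 95% interval of 0.680 to 2.03 (edgeR, adjusted p = 0.920). Its replicate variation beyond counting was 33.7% in the fit, against 14.9% from counting alone. The value moved with single WT libraries. Without WT replicate 4 the log2 fold change was 0.77 (unadjusted p = 0.0138, adjusted p = 0.363 in edgeR) without WT replicate 3 it was -0.0065, and without WT replicate 2 it was 0.025. An antisense gene, Gm17173, spans Ptger2, shares 0 exonic bases with its last exon and was read at 1.69 ± 0.493 against 1.06 ± 0.326 CPM (SD, n = 4).

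Ptgir, the prostacyclin receptor, lies at chr7:16906490-16910905 on the plus strand and overlaps no other annotated gene. Its CPM in replicates 1 to 4 were 3.36, 4.59, 3.57 and 5.87 in the libraries labelled Alox15-/- and 5.30, 7.81, 5.42 and 3.76 in WT. A single WT library, replicate 2, rose above all others, and WT replicate 4 was among the lowest. The log2 fold change was -0.34 ± 0.28 (SE), a fold of 0.788 with a 95% interval of 0.523 to 1.19 (edgeR, adjusted p = 0.829). Counting alone gave 18.0% of variation and the fit gave 21.4% beyond counting. For this gene the number of reads, 246 over all libraries, was thus a large part of the error. WT replicate 4 was thus the highest WT library for Ptger4 and Ptger2 and the lowest for Ptgir.

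Over the 8 libraries the log2 CPM of Ptger4 and Ptger2 had a Pearson r of 0.44, Ptger2 and Ptgir one of -0.66 and Ptger4 and Ptgir one of -0.17. These are descriptions over 8 libraries that share their depth and scaling, with 4 of each group. The genes most like Ptger4 were Lclat1 (r = 0.97), Irf4 (0.97) and Slco3a1 (0.96), and 56 tested genes had an r over 0.9 with it. Irf4, a transcription factor induced by T cell receptor signaling, was read at 196 to 318 CPM in the libraries labelled Alox15-/- and 253 to 423 in WT, with WT replicate 4 the highest as for Ptger4. Ptger2 was most like Tmbim1 (0.96), Rora (0.96) and Dennd2c (0.95), with 31 genes over 0.9. Rora, which encodes a nuclear receptor, was at 15.7 CPM in WT replicate 3 and 42.8 in WT replicate 4. Ptgir was most like Ifi30 (0.96), Cnksr3 (0.95) and Ccng2 (0.95), with 4 genes over 0.9.

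Ptger3 and Ptger1, the remaining prostaglandin E2 receptors, were sparse. Ptger3, at chr3:157566892-157645888 on the plus strand, had 14, 9, 4 and 18 reads in replicates 1 to 4 labelled Alox15-/- and 11, 11, 11 and 5 in WT. In CPM, 3 of the libraries labelled Alox15-/- were above every WT library and the other was below all of them. The pooled level was 1.59 times that of WT (exact 95% interval from counting 1.01 to 2.51), and the means of 2.28 ± 1.10 and 1.40 ± 0.382 CPM (SD, n = 4) gave p = 0.20 in the two-sided exact permutation test, whose smallest possible p is 0.0286.

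Ptger1, at chr8:83666678-83672753 on the plus strand, had 0 reads in all 4 libraries labelled Alox15-/- and 4, 0, 0 and 2 in WT. The exact 95% interval of the pooled ratio from counting, 0 to 1.14, includes no change, and the exact permutation test gave p = 0.429 (n = 4 each). The upper limit of the exact Poisson interval for 0 reads in the libraries labelled Alox15-/- is 0.182 CPM.

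Ltb4r2 and Ltb4r1 lie side by side on the plus strand, at chr14:55761428-55765138 and chr14:55765962-55768494, with 823 bases between them. Ltb4r2, the low-affinity receptor, was near the limit of detection, with 1, 0, 0 and 1 reads in replicates 1 to 4 labelled Alox15-/- and 1, 0, 2 and 0 in WT. Its mean difference was 0.0067 CPM (exact permutation p = 1.0, n = 4 each).

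Ltb4r1, the high-affinity receptor, had 3, 11, 6 and 4 reads in the libraries labelled Alox15-/- and 1, 1, 3 and 2 in WT. These are 0.721, 2.97, 1.13 and 0.572 CPM against 0.156, 0.159, 0.301 and 0.418 CPM, so that every library labelled Alox15-/- was above every WT library. Of 6370 genes below the filter with at least 10 reads, 3.55% were separated in this way and 4.9% in either direction. The means were 1.35 ± 1.11 and 0.258 ± 0.126 CPM (SD, n = 4), the two-sided exact permutation p was 0.0286, the smallest the design allows and not adjusted over genes, and the pooled ratio was 4.60 (exact 95% interval from counting 1.92 to 12.6). Without the filter the edgeR log2 fold change was 2.19 ± 0.70 (SE) with an adjusted p of 0.101.

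Fpr2, at chr17:17887824-17893952 on the plus strand, had 3, 16, 8 and 1 reads in the libraries labelled Alox15-/- and 4, 1, 2 and 0 in WT. In CPM the values were 0.721, 4.32, 1.505 and 0.143 against 0.624, 0.159, 0.201 and 0. Alox15-/- replicates 2 and 3 were far above the rest, and replicate 4 was below 3 of the 4 WT libraries. The pooled ratio was 5.37 (exact 95% interval from counting 2.29 to 14.6) and the exact permutation p was 0.114 (n = 4 each). In the fit without a filter Fpr2 was called, with a log2 fold change of 2.46 ± 0.68 (SE) and an adjusted p of 0.0231 in edgeR. Without Alox15-/- replicates 2 and 3 that log2 fold change was 0.52 (adjusted p = 0.916), and for Ltb4r1 it was 1.24 (adjusted p = 0.884).

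Among the 4 libraries labelled Alox15-/-, both receptors had the same order as the sums of myeloid markers, an order shared by the eosinophil and the natural killer and γδ T cell lists. The summed CPM of the 9 myeloid markers was 385.2 in replicate 2, 239 in replicate 3, 116 in replicate 1 and 83.4 in replicate 4, and Fpr2 and Ltb4r1 were highest in replicate 2, then 3, then 1, then 4. Among WT libraries the order was not the same: replicate 4 had the lowest myeloid sum, 34.0 CPM, and the highest Ltb4r1, 0.418 CPM. Of the 9 markers 6 were tested and 5 called higher. S100a8 and S100a9, which encode granulocyte and monocyte proteins, reached 92.6 and 96.4 CPM in a library labelled Alox15-/- and at most 2.55 and 0.936 CPM in WT. The eosinophil granule genes Epx and Prg2 ranged from 5.58 to 22.1 and from 13.6 to 46.4 CPM, against at most 2.51 and 3.55 CPM in WT. The other 3 eosinophil markers had a library at 0 in each group, and 1 of them, Ccr3, had the lower mean in the libraries labelled Alox15-/- (0.107 CPM against 1.63 in WT, where 1 library reached 6.21). The part of these cells in the Ltb4r1 and Fpr2 reads was not tested, and in bulk samples fewer cells of a type and less RNA per cell cannot be told apart. The last 500 bases of Fpr2 also resembled Gm5966 (91.3% identity over 427 bases) and Fpr3 (80.9%), so that its few reads are uncertain where the counting could split them.

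**Figure D3:**
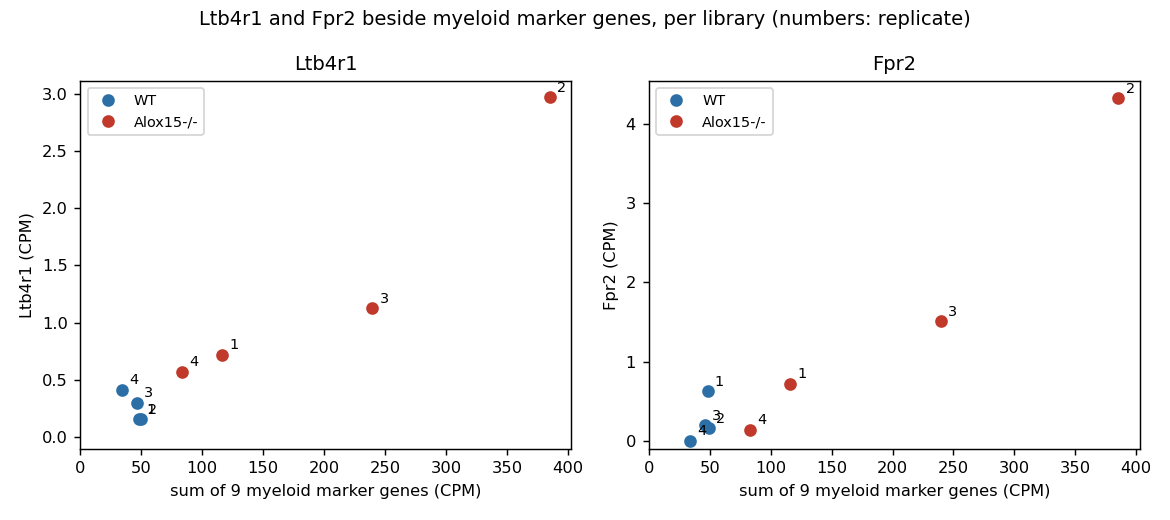
CPM of Ltb4r1 (left) and Fpr2 (right) against the summed CPM of 9 myeloid marker genes, 1 dot per library with its replicate number, on linear axes. Alox15-/- replicate 2 lies at the upper right in both panels, at 385.2 CPM of markers with 2.97 CPM of Ltb4r1 and 4.32 CPM of Fpr2, and all WT libraries lie under 50 CPM of markers.

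The cysteinyl leukotriene receptors showed no such separation. Cysltr1, at chrX:106574346-106603679 on the minus strand, had 1, 4, 9 and 3 reads in replicates 1 to 4 labelled Alox15-/- and 7, 5, 3 and 4 in WT, with means of 0.861 ± 0.661 and 0.756 ± 0.330 CPM (SD, n = 4, exact permutation p = 0.771). Cysltr2, at chr14:73025603-73049114 on the minus strand, had 1, 2, 1 and 1 reads against 1, 0, 9 and 0, so that 9 of its 10 WT reads came from replicate 3 (exact permutation p = 0.971, n = 4 each). The sign of either difference changed when single libraries were left out. The end of the Cysltr2 transcript matched 5 other genes at 90% identity or more, which leaves its reads uncertain. At this depth neither difference was detectable, and a pooled ratio from 0.586 to 2.44 for Cysltr1 and from 0.180 to 2.15 for Cysltr2 is within the exact intervals from counting.

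The genes around the receptors were examined in 7 lists of 113 genes, of which 74 were tested and 2 called (2.70%, against 1.24% of all genes). Both were higher in the libraries labelled Alox15-/- and both belong to the leukotriene branch of ligand synthesis. Alox5, the 5-lipoxygenase, was read at 12.5, 26.2, 13.2 and 8.44 CPM in replicates 1 to 4 labelled Alox15-/- and at 1.72, 1.12, 2.91 and 3.97 in WT. The groups did not overlap, and the log2 fold change was 2.61 ± 0.38 (SE, edgeR adjusted p = 0.00129). Alox5ap, which encodes the protein that presents arachidonic acid to it, was at 8.17, 17.0, 9.41 and 6.01 against 0.936, 1.59, 3.11 and 1.46 CPM, a log2 fold change of 2.38 ± 0.38 (SE, edgeR adjusted p = 0.00298). Both genes ran from replicate 2 through 3 and 1 to 4, the order of the myeloid sums, and the part of other cells in their reads was not tested. Without Alox15-/- replicates 2 and 3 Alox5 was still called by edgeR (2.10, adjusted p = 0.0278). Alox5ap was then below the filter, and in the edgeR fit of the same libraries with no filter it was called (1.87, adjusted p = 0.000154). The replicates kept in these fits, 1 and 4, still held 116 and 83.4 CPM of myeloid markers, against 34.0 to 49.4 CPM in WT.

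The other tested genes of ligand synthesis lay between -0.08 (Lta4h, which makes leukotriene B4) and 0.52 (Hpgds, a prostaglandin D synthase), with no call. Another 3, below the filter and picked after their values were seen, did not overlap between the groups. Ptgs1, the constitutive cyclooxygenase, had 6, 27, 14 and 8 reads in the libraries labelled Alox15-/- and 0, 0, 1 and 3 in WT. Ltc4s, leukotriene C4 synthase, had 4, 7, 7 and 3 against 0, 0, 2 and 0, and Tbxas1, thromboxane synthase, 8, 8, 9 and 7 against 4, 5, 7 and 3. All were separated in CPM. Over the 7 lists, 4 of 20 genes below the filter with at least 10 reads were separated upward, the fourth being Rgs18, against 3.55% of all such genes, and 0 downward. In the fit without a filter Ptgs1 (4.11, adjusted p = 3.28e-08), Rgs18 (3.80, adjusted p = 1.62e-07) and Ltc4s (3.58, adjusted p = 0.00616) were called by edgeR, and without Alox15-/- replicates 2 and 3 their log2 fold changes were 2.92, 2.82 and 2.90, with adjusted p-values of 0.135, 0.0924 and 0.697.

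With the filter, none of the tested genes in the 6 remaining lists was called by edgeR, DESeq2 or limma-voom, and the unadjusted edgeR p was under 0.05 for 6 of them. Of 17 other lipid mediator and formyl peptide receptors 9 were in the table and 3 tested, Fpr3 at a log2 fold change of 0.41, the thromboxane receptor gene Tbxa2r at 0.14 and Gpr18 at 0.08. With single libraries left out, Fpr3 ran from 0.073 to 0.69 and Tbxa2r from 0.066 to 0.22. Tbxa2r (30.2 ± 3.77 against 27.7 ± 3.13 CPM, SD, n = 4) and Gpr18 (39.9 ± 7.75 against 37.6 ± 2.39 CPM) were thus read more often than any of the 10 members other than Ptger4. The 7 tested genes of ligand export and breakdown ran from -0.26 (Ptgr2) to 0.57 (Ptgr1), both prostaglandin reductases, with a median of -0.0030.

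Downstream, the 14 tested G protein subunits had a median of -0.02 and ran from -0.27 (Gnas, the stimulatory α subunit used by EP2 and EP4) to 0.13 (Gnb5). Gnas was read at 1053 ± 84.2 and 1273 ± 70.8 CPM (SD, n = 4) and the groups did not overlap, with the highest library labelled Alox15-/- at 1178 and the lowest WT library at 1206, as was the case for 5.25% of all tested genes in either direction. Its unadjusted p was 0.0105 and the adjusted p 0.353 in edgeR. The 21 tested genes of the cyclic AMP pathway had a median of 0.02 and ran from -0.43 (Adcy6) to 0.47 (Adcy9), both adenylyl cyclases. The 13 tested receptor kinases, arrestins and RGS proteins, which end signaling of such receptors, had a median of 0.06 and ran from -0.34 (Rgs3) to 0.67 (Rgs2). With single libraries left out this median ran from -0.06 (without WT replicate 2) to 0.09 (without WT replicate 3), and Rgs3 from -0.46 to -0.16.

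The 9 tested targets of the cyclic AMP response factor CREB had a median log2 fold change of -0.43, against -0.0073 for all genes tested, and 5 of the 9 lay below 0. They ran from -1.27 (Fosb) to 0.06 (Sik1), and none was called. In the edgeR fit without a filter 4 of 10 were called, all lower: Fosb (-1.30), Nr4a1 (-0.56), Dusp1 (-0.53) and Nr4a3 (-0.47), against 1.37% of all genes in that fit. Without Alox15-/- replicates 2 and 3 as well, 0 of the 10 were called. WT replicate 4 decided this median, which was 0.05 without that library. Nr4a1, an early gene induced by T cell receptor signaling as well as by cyclic AMP, was at 417 CPM in WT replicate 4 and at 131 to 153 in the other WT libraries, and at 112 to 194 CPM in the libraries labelled Alox15-/-. Over the 7 lists, 8 of the 74 tested genes had an unadjusted p under 0.05 (10.8%, against 7.84% of all genes).

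**Figure D4:**
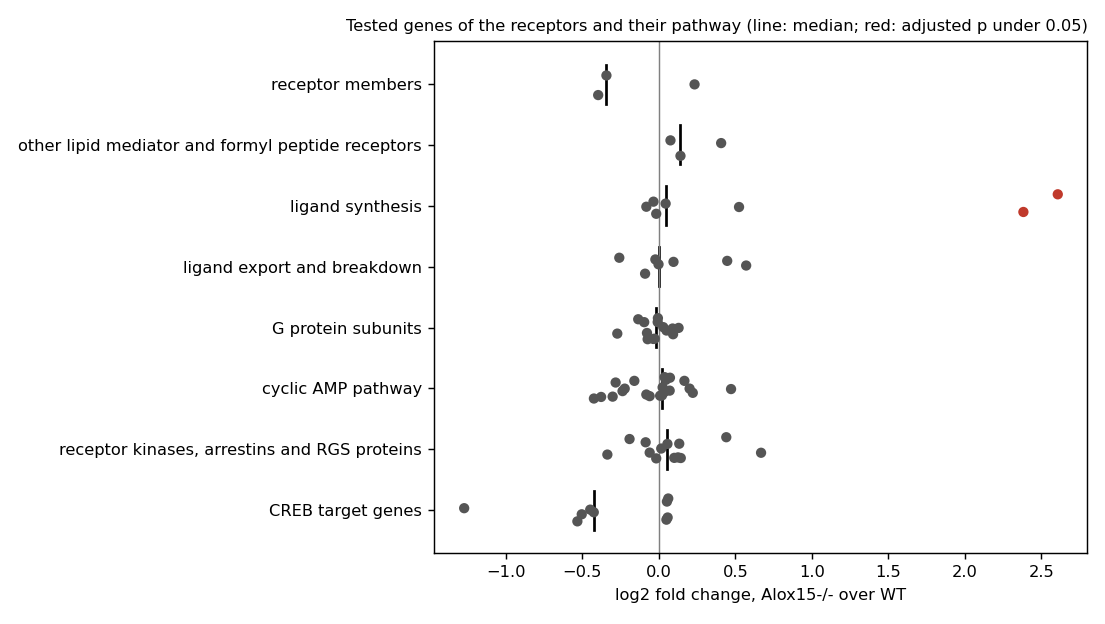
Log2 fold change, Alox15-/- over WT, of each tested gene (dot) among the receptors and in the 7 lists of genes around them, with the median of each list as a black line. Alox5 and Alox5ap, in red, at 2.61 and 2.38, are the 2 genes with an adjusted p under 0.05, and the CREB targets have the lowest median of the 7 lists, -0.43.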

How the data were processed

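RNA of Tregs from 4 WT and 4 Alox15-/- mice was profiled by MACE-seq, which reads transcripts near their 3′ ends; the labels name a small RNA kit instead. The deposited values are raw counts, 1 per symbol and library, which the authors did not normalize. The submitters' processing notes name Bowtie, edgeR and GRCm38, and the methods name edgeR with a filter of at least 2 CPM in at least 4 libraries. Counting tool, strand setting and duplicate removal are not given in the sources used here. The exact intervals on reads cover counting error only. If duplicates were not removed, reads are not independent molecules and these intervals are too narrow. P-values set the difference between the groups against the spread between these libraries. Whether that spread is one between animals is not stated.

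Counts were scaled by TMM and tested in edgeR 4.0.16 (R 4.3.3; glmQLFit, glmQLFTest), with genotype as the single term and Benjamini–Hochberg adjustment over 12700 genes. The common biological coefficient of variation was 14.5%, and 0 rows lacked a gene name. The SE was the size of the log2 fold change divided by the square root of F. CPM used TMM-scaled totals. Members below the filter were compared by a two-sided exact permutation test of mean CPM (70 splits) and by pooled reads with exact intervals in scipy 1.17.1. Log2 CPM for correlations used a prior count of 2. No pair of libraries of a group agreed within sampling noise. Positions came from GENCODE M21 (GRCm38) and start-site windows from RefSeq; the ends of transcripts were compared with blastn 2.17.0. The main edgeR fit was tested on simulated counts of the genes past the filter.

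The members, gene lists and tests were chosen with earlier results of these data known. Genes named are the 10 members, list genes past the threshold or at either end of a list, the 3 genes most like each tested member, genes overlapping a member (1 overlap is not reported here), and Alox15; Hpgds, Ptgs1, Ltc4s, Tbxas1, Rgs18, Nr4a1, Nr4a3 and Dusp1 and the marker genes named were picked after their values were seen. Alternatives were 2 other scalings, no filter or edgeR's own, the robust test, DESeq2 1.42.0, limma-voom 3.58.1, the replicate number as a block, totals without hemoglobin genes or without TMM, each library left out, and, chosen after seeing the data, Alox15-/- replicates 2 and 3 left out together.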

Additional observations from a re-analysis of the deposited data

Results flagged for a closer look

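Groups of 4 libraries were examined for 54 of the genes named in the text, 108 groups in all. In them 10 libraries lay farther from the rest of their group than Dixon's 95% limit of 0.829 of the range. Chance passes this limit in about 1 in 20 groups. None of the 10 receptors was among the genes concerned.

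A set of 3 genes stood out in WT replicate 4. Fosb, an immediate early gene and CREB target, was at 16.7 CPM there and at 1.81 to 2.65 CPM in the other WT libraries, and without that library its log2 fold change was -0.02 in place of -1.27. Nr4a1 was at 417 CPM against 131 to 153, and Ptgs1 at 0.626 CPM against 0 to 0.100. Another 3 stood out in Alox15-/- replicate 1: the adenylyl cyclase gene Adcy6 at 7.69 CPM against 5.64 to 5.87, and Lclat1 at 33.4 CPM against 26.7 to 27.2 and Slco3a1 at 92.0 CPM against 71.5 to 72.1, both of them among the genes most like Ptger4. In WT replicate 3, Foxp3 was at 194 CPM against 92.9 to 109 and Ltc4s at 0.201 CPM against 0 in the other WT libraries. In WT replicate 2, Ccr3 was at 6.21 CPM against 0 to 0.301 and Ttc33 at 27.2 CPM against 20.7 to 21.8.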

How the results depend on the processing

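Without the filter, 388 genes were called in place of 158, 2 members (Ptger4, at -0.42, and Fpr2) in place of 0, and 11 pathway genes in place of 2. Without Alox15-/- replicates 2 and 3, 60 genes and 1 pathway gene were called, and with no filter as well 210 and 3. With each library left out in turn, 86 to 173 genes, 0 members and 2 pathway genes were called. In those fits the log2 fold change of Ptger4 ran from -0.55 to -0.26, of Ptgir from -0.55 to -0.15 and of Ptger2 from -0.0065 to 0.77. In CPM, the difference of Ltb4r1 ran from 0.549 to 1.35 (exact permutation p = 0.0571 each time, the smallest that 3 against 4 libraries allow), of Ltb4r2 from -0.041 to 0.044, of Cysltr1 from -0.17 to 0.31 of Cysltr2 from -0.075 to 0.23, of Fpr2 from 0.544 (without Alox15-/- replicate 2) to 1.94, of Ptger3 from 0.515 (without Alox15-/- replicate 1) to 1.39 (without replicate 3) and of Ptger1 from -0.347 to -0.139 (without WT replicate 1). Without Alox15-/- replicates 2 and 3 the differences were 0.388 CPM for Ltb4r1 (exact permutation p = 0.133), -0.421 for Cysltr1 and -0.073 for Cysltr2.

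Small log2 fold changes that turned sign were those of Fpr3 (-0.053, and -0.083 with no filter) and Gpr18 (-0.025 and -0.048) without Alox15-/- replicates 2 and 3, Gnb5 in limma-voom (-0.17) and Sik1 with the block (-0.0013). With single libraries left out, values ran from -0.051 to 0.16 for Gpr18, from -0.37 to 0.50 for Gnb5, from -0.20 to 0.025 for Lta4h from -0.12 to 0.23 for Sik1 and from -0.71 to 0.049 (without WT replicate 4) for Nr4a1. None of these values passed the threshold. Fosb (-1.30), Nr4a1 (-0.56), Dusp1 (-0.53) and Nr4a3 (-0.47) were called by edgeR without the filter. The cause of these changes was not tested.

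Libraries of the 2 groups with the same replicate number share only that number: the correlations of their deviations from the group means were 0.07, 0.17, -0.18 and -0.02, and 1 of the 4 numbers matched best in both groups. With the replicate number as a block, 146 genes and 0 members were called. With 15 or fewer reads over 8 libraries, Ptger1, Ltb4r2 and Cysltr2 were limited by depth.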
